A study of Mus musculus with 10 samples.

Results

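The genes of folate, vitamin B12 and other water-soluble vitamin uptake were examined in RNA-seq counts of mouse proximal intestine from 5 WT and 5 Zip14 KO mice. They are 9 genes taken by name, *Slc46a1*, *Slc19a1*, *Cubn*, *Amn*, *Tcn2*, *Slc19a3*, *Slc23a1*, *Slc52a3* and *Slc5a6*, and all 9 were found among the 35275 gene IDs that each library holds. Zip14 (*Slc39a14*) is a metal transporter that carries zinc into cells. The study's methods describe the RNA-seq mice as lacking *Zip14* in the whole body, and the controls as WT mice of the same strain, with both genotypes bred from heterozygous parents. The title of the series names an enterocyte-specific deletion instead, and the sample labels give only KO or WT. No other allele or treatment is given for either group, and the labels put the mice at 8 to 10 weeks of age. The study used mice of both sexes and the labels name no sex, so it could not be taken into account here.

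Water-soluble vitamins do not cross the epithelium freely and are taken up by dedicated proteins of the enterocyte. Dietary folate enters through the proton-coupled folate transporter *Slc46a1*, which works best at the acid surface of the upper small intestine, and vitamin B12 bound to intrinsic factor enters through a receptor made of cubilin and amnionless, a step known from the distal small intestine. Thiamine, ascorbate, riboflavin and biotin each have sodium- or proton-dependent carriers of the SLC19, SLC23, SLC52 and SLC5 families. Mice also make ascorbate in the liver.

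Levels are given as TMM CPM, counts scaled to a common library size after a correction for the composition of each library. The quasi-likelihood test of edgeR was run over 15610 genes, and a gene was called at an adjusted p under 0.05. All 9 vitamin uptake genes passed the filter on low counts. Of the 9 vitamin uptake genes, 6 were called, 4 of them lower and 2 higher in KO mice. Over all the genes tested, 29.9% were called, 13.9% as lower and 16.0% as higher. *Slc46a1*, *Slc19a3* and *Slc23a1* were lower by factors between 18.4 and 33.35 in the fit, *Slc19a1* was lower by a smaller amount, and *Slc52a3* and *Slc5a6* were higher. The B12 genes *Cubn*, *Amn* and *Tcn2* were not called. WT and KO libraries were fully separated for 5 of the 9 genes, 3 with all KO libraries below and 2 with all KO libraries above, and for 21.1% of all genes tested (10.8% below and 10.2% above). The median log2 fold change was -0.25 over the 9 genes and 0.03 over all genes tested. The 9 genes were picked with earlier results of these libraries known, and no test was run on these shares.

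**Figure D1:**
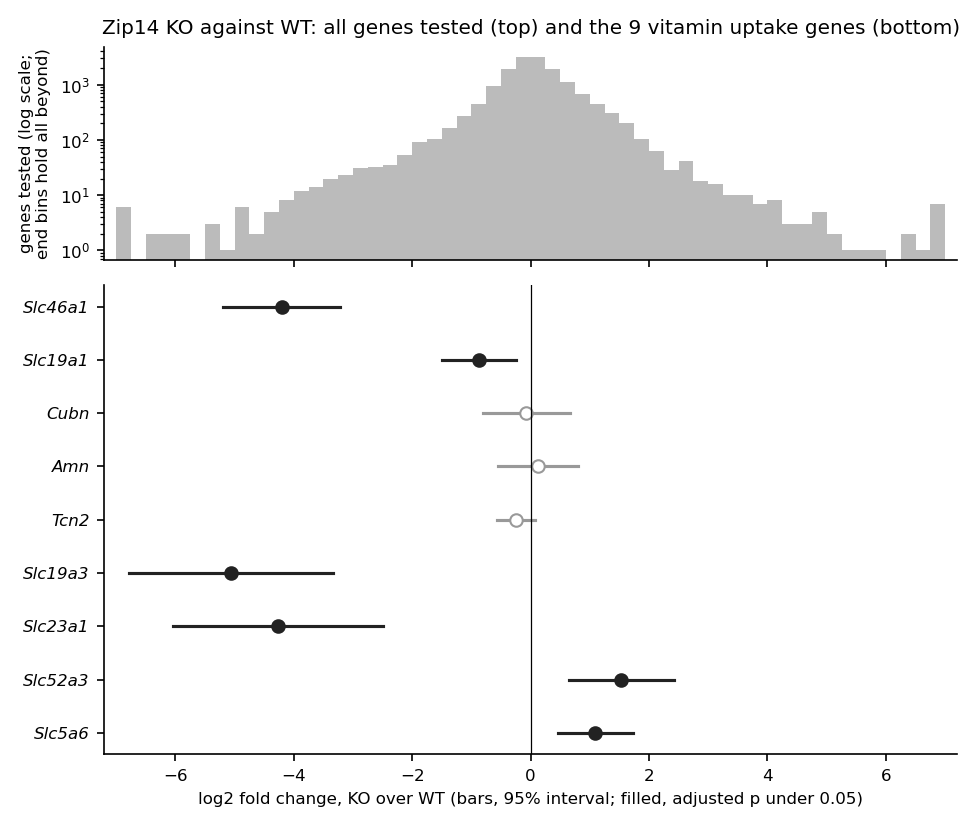
Log2 fold changes of KO over WT mice, with all 15610 genes tested as a histogram (top, number of genes on a log scale) and the 9 vitamin uptake genes with their 95% intervals (bottom, filled points called by edgeR). The intervals of *Slc46a1*, *Slc19a3* and *Slc23a1* reach up to at most -2.49, and those of *Cubn*, *Amn* and *Tcn2* include 0.

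The libraries themselves differed between the groups beyond these genes. The total was between 16729787 and 20819678 counts in WT and between 17118742 and 19414828 in KO libraries. *Slc39a14* had 260.4 ± 62.5 CPM in WT and 102 ± 32.9 CPM in KO mice (SD, n = 5 each), and differed by -1.35 ± 0.22 on the log2 scale (SE, adjusted p = 0.00184). All 6 ileal markers were higher in KO mice, where *Fabp6*, *Slc51a* and *Slc10a2* had the highest levels of the 6. The summed level of the 6 was 219.7 to 301.9 CPM in WT and 3347 to 10610 CPM in KO libraries. Of 8 markers of the proximal intestine, 7 were tested and 4 were lower by edgeR, and 6 of the 8 by DESeq2, run without the edgeR filter, with a sum of 8426 to 15310 CPM in WT and 91.97 to 1341 CPM in KO libraries. In WT libraries that sum was mostly *Apoa4*, *Lct* and *Fabp1*, and in KO replicate 5 mostly *Slc40a1* (63.8 CPM). *Slc40a1* (20.6 and 32.6 CPM in WT and KO mice, log2 fold change 0.66, adjusted p = 0.236) and *Cybrd1* (9.52 and 7.64 CPM, -0.32, adjusted p = 0.401) overlapped between the groups. KO libraries labelled as proximal intestine thus held high levels of the ileal markers and low levels of most of the proximal markers, and for the vitamin genes the genotype and the stretch of intestine cannot be told apart. Smooth muscle markers were higher for 7 of 8 genes, with a sum of 1557 to 2547 CPM in WT and 3421 to 10150 CPM in KO libraries, and epithelium markers were higher for 5 of 8, with 10660 to 12770 and 12930 to 18210 CPM. The epithelium markers *Vil1* (log2 fold change -0.49, adjusted p = 0.105) and *Cdh17* (-0.41, adjusted p = 0.0942) had the opposite sign and were not called. Each had an unadjusted p under 0.05 by edgeR and 4 KO libraries below all WT libraries. Of 6 markers each, 1 endothelial and 1 macrophage marker were lower and no B and plasma cell marker was called by edgeR, with 2 at an unadjusted p under 0.05 and 1 called by DESeq2. The 1 exocrine pancreas marker above the filter was not called by edgeR or DESeq2, with an unadjusted p under 0.05. The 4 colon markers were below the filter, and they summed to 1243 CPM in KO replicate 2, almost all of it *Car1*, and to at most 49.99 CPM elsewhere. In bulk tissue, fewer cells of a type and less RNA per cell cannot be told apart.

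The mean log2 CPM of the smooth muscle markers was 7.11 to 7.87 in WT and 8.48 to 10.04 in KO libraries. With this score in the edgeR model, none of the 9 genes was called, with adjusted p between 0.12 and 0.993 and 3 genes at an unadjusted p under 0.05. The log2 fold changes there were -3.67 for *Slc46a1*, -3.52 for *Slc19a3*, -3.03 for *Slc23a1*, 1.01 for *Slc52a3* and 1.55 for *Slc5a6*, while that of *Slc19a1* was -0.27. As the score does not overlap between the groups, its part and that of the genotype cannot be told apart. Scaling by library size alone moved the median log2 fold change of all genes to 0.15 and the share of higher genes among the calls from 53.5% to 69.4%, and scaling to the epithelium markers moved them to -0.33 and 12.5%.

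*Slc46a1* (ENSMUSG00000020829, GRCm38 chromosome 11 from 78465697 to 78472059, plus strand) is the main entry route of dietary folate. WT replicates 1 to 5 had 211, 388, 335, 109 and 101 CPM, and KO replicates 1 to 5 had 14.7, 16.7, 9.07, 15.1 and 6.40 CPM. Every KO library was below every WT library, with 101 CPM in the lowest WT and 16.7 CPM in the highest KO library. The mean fell from 229 ± 130.1 CPM to 12.4 ± 4.41 CPM (SD, n = 5 each), and the log2 fold change was -4.21 ± 0.45 (SE, adjusted p = 2.52e-04). The exact permutation test gave a 2-sided p of 0.00794, the smallest that 5 mice against 5 allow. By the size of its log2 fold change, *Slc46a1* ranked 57th among the genes tested. With each mouse left out in turn it stayed between -4.40 and -3.93 and was called each time.

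*Slc19a1* (ENSMUSG00000001436, chromosome 10 from 77032241 to 77061002, plus strand) is the reduced folate carrier, which moves folate into cells at neutral pH throughout the body. It had 28.4, 54.5, 39.8, 18.0 and 18.2 CPM in WT and 17.6, 16.9, 14.7, 17.1 and 20.1 CPM in KO replicates 1 to 5. WT replicates 1 to 3 were above all KO libraries, while WT replicates 4 and 5 were within the KO range. The log2 fold change was -0.88 ± 0.28 (SE, adjusted p = 0.0387; exact permutation test, p = 0.0476). The call was lost with scaling to library size (adjusted p = 0.0545) and without any one of WT replicates 1 to 3 or KO replicates 1 to 4, where it was -0.92 to -0.60. *Col18a1* overlaps it in part on the other strand, without shared exon bases, and was also lower (log2 fold change -0.86, adjusted p = 0.0112).

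RefSeq promoter windows on GRCm38.p6 were found for 6 of the 9 genes, and *Tcn2*, *Slc23a1* and *Slc52a3* had none. Those of *Slc46a1* and *Slc19a3*, which were both lower, and of *Cubn* and *Amn*, which form 1 receptor and were not called, are shown up to the base before the start in RefSeq or in GENCODE, whichever lies further upstream (RefSeq for *Cubn*), 5′ to 3′ on the strand of the gene. Capitals mark matches on either strand to 2 short cores of the motifs of intestinal transcription factors, CAAAG for HNF4 and TTTAT for CDX.
Slc46a1, chr11:78465451-78465696, plus strand: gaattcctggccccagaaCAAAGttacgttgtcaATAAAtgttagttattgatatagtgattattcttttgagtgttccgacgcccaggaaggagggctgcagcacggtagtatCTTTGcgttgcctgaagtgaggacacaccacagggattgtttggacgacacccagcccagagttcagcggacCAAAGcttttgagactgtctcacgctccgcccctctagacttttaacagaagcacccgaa
Slc19a3, chr1:83038449-83038698, minus strand: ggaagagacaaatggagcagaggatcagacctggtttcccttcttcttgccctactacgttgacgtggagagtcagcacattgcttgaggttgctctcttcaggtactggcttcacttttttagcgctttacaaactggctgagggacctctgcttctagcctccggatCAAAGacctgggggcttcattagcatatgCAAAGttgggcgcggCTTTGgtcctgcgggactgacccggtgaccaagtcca
Cubn, chr2:13491877-13492126, minus strand: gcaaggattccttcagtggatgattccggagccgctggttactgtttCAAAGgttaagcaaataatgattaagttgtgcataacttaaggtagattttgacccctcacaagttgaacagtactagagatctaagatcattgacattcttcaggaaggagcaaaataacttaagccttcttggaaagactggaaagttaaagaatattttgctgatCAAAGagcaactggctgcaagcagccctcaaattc
Amn, chr12:111270846-111271094, plus strand: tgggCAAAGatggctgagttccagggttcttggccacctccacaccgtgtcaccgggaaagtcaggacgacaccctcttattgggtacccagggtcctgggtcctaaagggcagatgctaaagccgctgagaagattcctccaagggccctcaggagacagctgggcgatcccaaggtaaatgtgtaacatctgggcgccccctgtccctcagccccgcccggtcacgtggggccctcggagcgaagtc
In the full windows of 300 bases, CAAAG was found in 5 of 8 member windows and in 53.9% of all 32851 windows, and TTTAT in 1 of 8 and in 40% of all. GATAA, the core of the GATA motif, and TGCGCA, of the NRF1 motif, were in none of the 8 and in 25.4% and 7.76% of all. TTTAT and GATAA can share bases where 1 runs into the other. In the stretches shown, *Slc46a1* and *Slc19a3* held 3 matches to CAAAG each, *Cubn* 2 and *Amn* 1. How many matches other windows held was not counted. Neither window of *Slc19a1*, which was lower, held one, and 1 of 2 windows of *Slc5a6*, which was higher, did. The longer HNF4 core CAAAGTC was in 0 of the 8 windows and in 4.44% of all.

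*Cubn* (ENSMUSG00000026726, chromosome 2 from 13276338 to 13491813, minus strand) codes for cubilin, the large extracellular protein that binds intrinsic factor loaded with B12. The WT libraries had 478, 535, 372, 765 and 1100 CPM and the KO libraries 1038, 662, 496, 537 and 355 CPM, in order of replicate. The groups covered nearly the same range, with 1 KO library below all WT libraries and none above. The means were 650 ± 290 CPM and 617 ± 259 CPM (SD, n = 5 each), and the log2 fold change was -0.07 with a 95% interval from -0.81 to 0.66 (adjusted p = 0.884). A change within that interval, in either direction, was therefore not excluded.

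*Amn* (ENSMUSG00000021278, chromosome 12 from 111271095 to 111276426, plus strand) codes for amnionless, which anchors cubilin in the membrane and is needed for its transport to the cell surface. WT replicates had 148, 98.6, 96.0, 164 and 166 CPM and KO replicates 187, 105, 66.1, 239 and 134 CPM. KO libraries lay on both sides of the WT range, with 2 above and 1 below all WT libraries. Its log2 fold change was 0.12 with a 95% interval from -0.56 to 0.80 (adjusted p = 0.789). Per kb of exon, the ratio of *Cubn* to *Amn* was 0.399 to 0.816 in WT and 0.277 to 0.926 in KO libraries, so that the balance of the receptor's partners also overlapped between the groups.

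*Tcn2* (ENSMUSG00000020432, chromosome 11 from 3917192 to 3932159, minus strand) codes for transcobalamin, which carries absorbed B12 to the tissues. It had 442, 389, 374, 404 and 401 CPM in WT and 423, 326, 230, 359 and 353 CPM in KO mice. In KO replicates 2 to 5 it was below all WT libraries, and KO replicate 1 was within the WT range. The log2 fold change of -0.25 (95% interval -0.57 to 0.07) was not past the threshold (adjusted p = 0.21; exact permutation test, p = 0.0714). Scaled to the epithelium markers in place of TMM it was -0.60 and called (adjusted p = 0.0096). Endothelial markers, of cells known to make transcobalamin, summed to 132.8 to 155.7 CPM in WT and 96.95 to 155.9 CPM in KO libraries, and their part in the result was not tested.

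**Figure D2:**
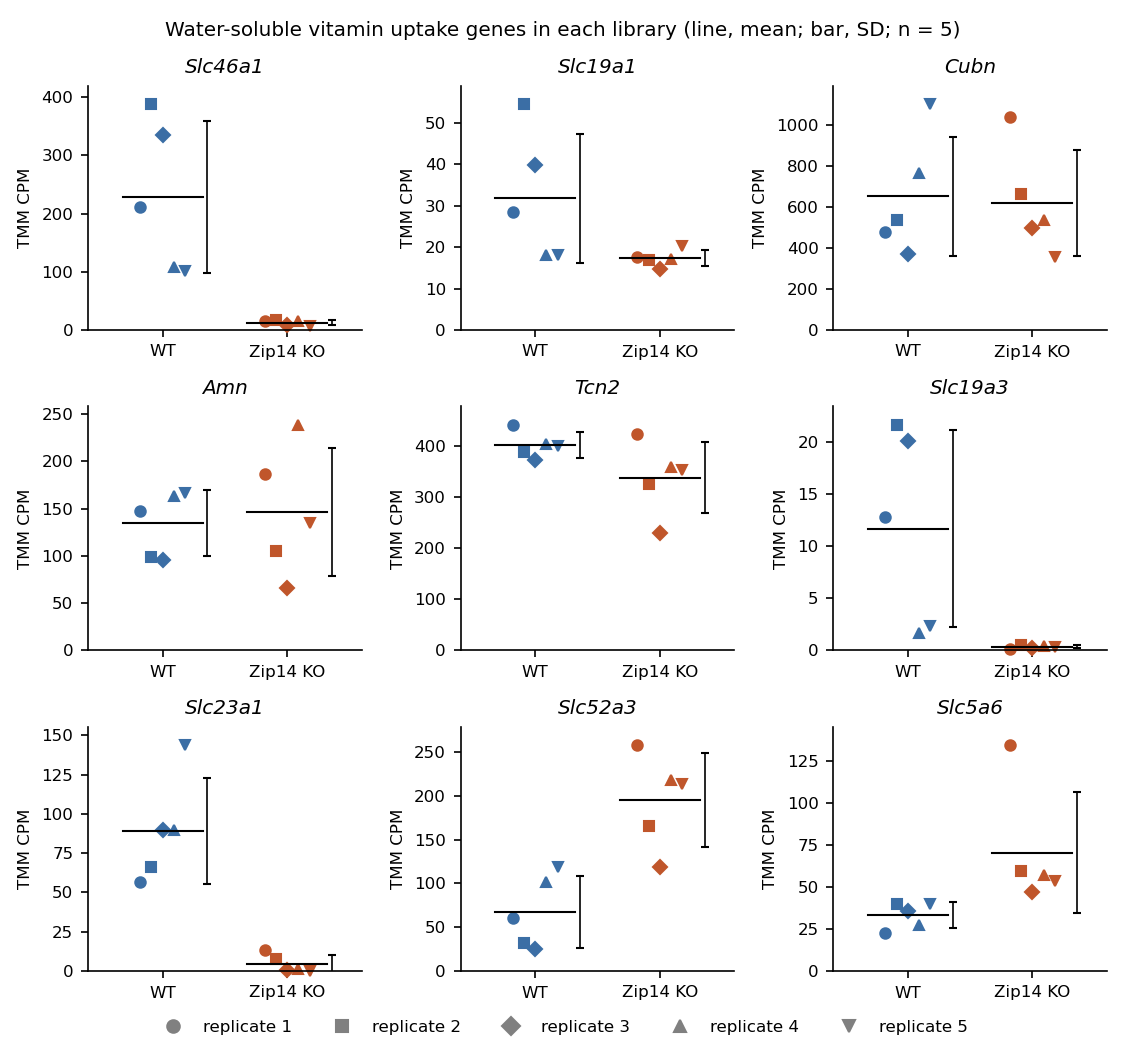
TMM CPM of each vitamin uptake gene (vertical axis, one panel a gene) in the WT and KO libraries, with a symbol for each replicate number, a line at the mean of 5 libraries and a bar of 1 SD. *Slc46a1*, *Slc19a3* and *Slc23a1* lie below all WT libraries in KO mice, *Slc52a3* and *Slc5a6* lie above them, and the B12 genes overlap.

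*Slc19a3* (ENSMUSG00000038496, chromosome 1 from 83012523 to 83038448, minus strand) is a high-affinity thiamine transporter of the brush border and belongs to the same family as the reduced folate carrier. WT replicates had 12.8, 21.7, 20.1, 1.65 and 2.35 CPM, and KO replicates had 0.169, 0.525, 0.216, 0.429 and 0.367 CPM. No KO library reached the lowest WT library, although WT replicates 4 and 5 were far below the other WT libraries. The log2 fold change was -5.06 ± 0.79 (SE, adjusted p = 0.00151; exact permutation test, p = 0.00794), the 31st largest in size of all genes tested. It rests on 1002 counts over the WT and 33 counts over the KO libraries, which had 3 to 10 counts each.

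The other carrier of thiamine, *Slc19a2*, was also lower, with 22.6 ± 3.38 CPM in WT and 11.5 ± 1.26 CPM in KO mice (SD, n = 5 each) and a log2 fold change of -0.98 ± 0.13 (SE, adjusted p = 6.25e-04). *Slc44a4*, which carries choline and the phosphorylated form of thiamine, was higher, at 77.3 to 143.8 CPM in WT and 327 to 518 CPM in KO libraries (log2 fold change 1.82 with an SE of 0.19, adjusted p = 2.25e-04). Of the 5 other thiamine genes, 2 were higher and 1 was lower, 60% called against 29.9% of all genes tested.

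*Slc23a1* (ENSMUSG00000024354, chromosome 18 from 35614604 to 35627244, minus strand) is the sodium-dependent ascorbate transporter of absorbing epithelia. WT libraries had 56.9, 66.3, 89.7, 89.6 and 144 CPM in order of replicate. KO libraries had 13.4, 7.45, 0.756, 1.48 and 0.262 CPM, and all were below all WT libraries. KO replicates 1 and 2 stood above the other KO libraries, which had at most 1.48 CPM. The log2 fold change was -4.26 ± 0.81 (SE, adjusted p = 0.00379; exact permutation test, p = 0.00794) and became -5.17 without KO replicate 1. *Slc23a2*, which serves the uptake of ascorbate in most other cells, was lower too, from 101 ± 26.9 to 41.2 ± 8.94 CPM (SD, n = 5 each, log2 fold change -1.30, adjusted p = 0.00136).

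*Slc52a3* (ENSMUSG00000027463, chromosome 2 from 151996511 to 152009258, plus strand) is the apical riboflavin transporter. It had 60.3, 32.1, 25.5, 101 and 118 CPM in WT and 258, 166, 119, 218 and 213 CPM in KO replicates. The KO libraries were all above the WT libraries, but KO replicate 3 and WT replicate 5 differed by less than 1 CPM. The log2 fold change was 1.53 ± 0.40 (SE, adjusted p = 0.017; exact permutation test, p = 0.00794). *Slc52a2*, another riboflavin transporter, had 94.8 ± 5.99 and 118 ± 37.6 CPM (log2 fold change 0.31, adjusted p = 0.235), and none of the 3 other riboflavin genes was called by edgeR or DESeq2, nor had any an unadjusted p under 0.05 by edgeR.

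*Slc5a6* (ENSMUSG00000006641, chromosome 5 from 31036036 to 31048924, minus strand) takes up biotin, pantothenate and lipoate together with sodium. WT replicates had 22.6, 39.7, 35.7, 27.4 and 40.1 CPM and KO replicates 134, 59.5, 47.2, 57.2 and 53.8 CPM. All KO libraries were above all WT libraries, and KO replicate 1 stood well above the other KO libraries. The log2 fold change was 1.09 ± 0.29 (SE, adjusted p = 0.0172; exact permutation test, p = 0.00794), and without KO replicate 1 it was 0.72 and still called (adjusted p = 0.01). Scaled to the epithelium markers it was 0.71 and not called (adjusted p = 0.0644). Its exons share 396 bases with *Atraid* on the other strand, whose log2 fold change was 0.40 (adjusted p = 0.163), and reads of the pair cannot be told apart if the counting ignored strand.

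**Figure D3:**
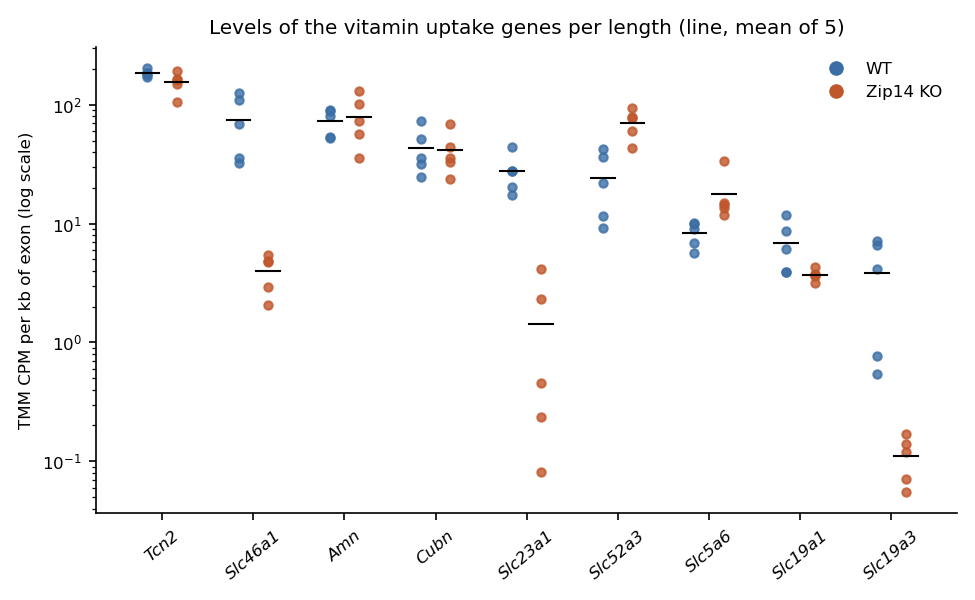
TMM CPM per kb of exon (log scale) of each vitamin uptake gene in the 5 WT and 5 KO libraries, ordered by the WT mean, with a line at each mean. *Tcn2* is the highest in both groups, while *Slc46a1* stands second in WT and sixth in KO mice.

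Divided by exon length, *Tcn2* had the highest level in WT mice, at 185 CPM per kb, and its WT libraries were above those of every other member. *Slc46a1* (74.2), *Amn* (73.0), *Cubn* (43.5), *Slc23a1* (27.6), *Slc52a3* (24.4), *Slc5a6* (8.29), *Slc19a1* (6.85) and *Slc19a3* (3.82 CPM per kb) followed, and each of these overlapped its neighbour in the order. In KO mice the order of the means was *Tcn2* (155), *Amn* (79.4), *Slc52a3* (70.4), *Cubn* (41.3), *Slc5a6* (17.6), *Slc46a1* (4.02), *Slc19a1* (3.72), *Slc23a1* (1.44) and *Slc19a3* (0.111 CPM per kb). Only *Slc5a6* and *Slc46a1* were neighbours without overlap there, so that the genes fell into an upper set of 5 and a lower set of 4. Lengths are those of all annotated exons joined, and a shorter transcript in use would raise the value.

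The vitamin genes also varied within the WT group, in part in the same libraries. In WT replicates 4 and 5 the levels of *Slc46a1*, *Slc19a1* and *Slc19a3* were the lowest of the WT group, and those of *Cubn*, *Amn* and *Slc52a3* were the highest. *Tcn2*, *Slc23a1* and *Slc5a6* did not follow either order. Of the 8 proximal markers, 6 were also lowest in WT replicates 4 and 5, among them *Onecut2* (18.1 and 20.2 CPM against 68.1 to 124 CPM). *Cybrd1* was not, and *Lct*, the lactase gene, was highest there (3641 and 3783 CPM against 3363 to 3533 CPM). Among KO libraries, replicates 1 and 2 held the most *Slc23a1*, *Cubn* and *Slc5a6* and also the most of 4 of the 8 proximal markers, among them *Lct* (702 and 281 CPM against at most 3.08 CPM). The other 4 did not follow, with the lowest *Onecut2* in KO replicate 1 (0.282 CPM) and the highest *Slc40a1* in KO replicate 5 (63.8 CPM). The part of position along the intestine in these differences was not tested.

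**Figure D4:**
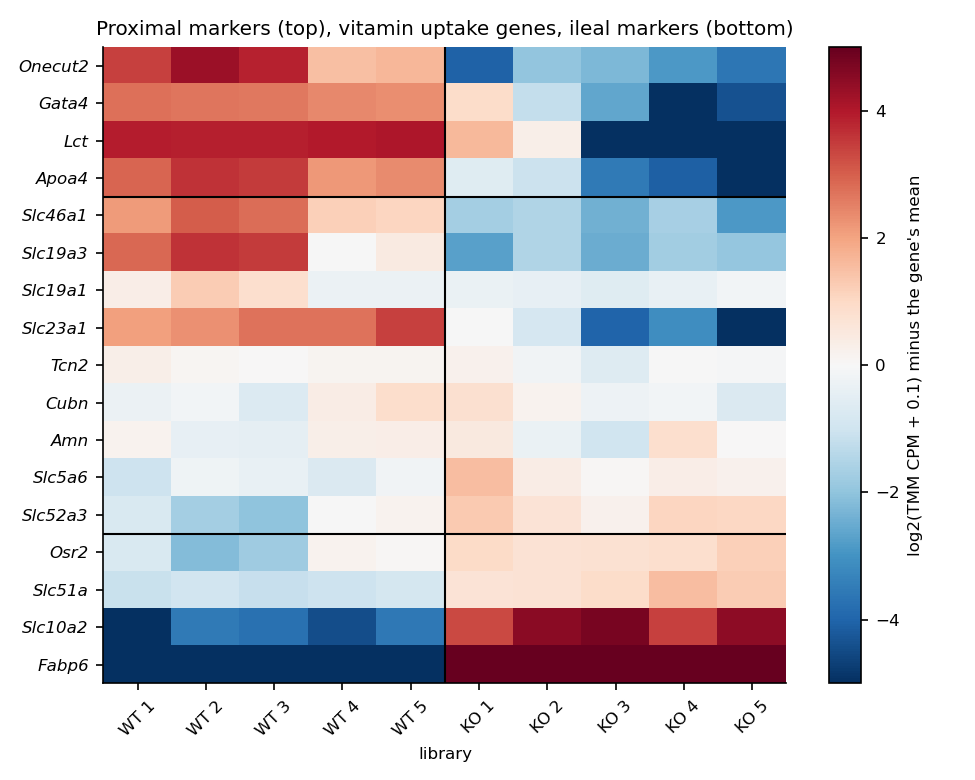
Colour shows log2 of TMM CPM plus 0.1 minus the mean of the gene, in each of the 10 libraries, for 4 proximal markers (top), the 9 vitamin uptake genes (middle) and 4 ileal markers (bottom), with colours ending at 5 in either direction. *Slc46a1*, *Slc19a3* and *Slc23a1* are higher in all WT than in all KO libraries, as are the 4 proximal markers drawn (*Onecut2*, *Gata4*, *Lct* and *Apoa4*, of 8 on the list). *Slc19a3* is closer to its mean in WT replicates 4 and 5 than in the other WT libraries. *Cubn*, *Amn* and *Tcn2* show no split between the groups.

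A list of 72 other genes of vitamin transport and use was read from the same fit, of which 70 had an ID and 65 were tested. In KO mice 10 were higher and 17 were lower, 41.5% of those tested against 29.9% of all genes, with a median log2 fold change of 0.02. The total of 27 was 17 without WT replicate 2, 16 without WT replicate 3 and 17 without KO replicate 3. With scaling to library size 16 were higher and 11 lower, and with scaling to the epithelium markers 3 were higher and 31 lower. Of the 15 folate genes tested, 4 were lower and none was higher by edgeR or DESeq2 (26.7% called by edgeR). Of the others, 3 were higher at an unadjusted p under 0.05 by edgeR and *Abcc3* was lower (log2 fold change -0.75, adjusted p = 0.0932). *Abcc2*, an efflux pump of the brush border that carries folates among many other substrates, fell from 931 ± 228 to 154 ± 108 CPM (SD, n = 5 each, log2 fold change -2.60, adjusted p = 0.00276). The mitochondrial folate carrier *Slc25a32* fell by 0.56 on the log2 scale (adjusted p = 0.0424). The conjugase *Ggh* (log2 fold change 0.21, adjusted p = 0.562) and the folate receptor *Folr2* (0.86, adjusted p = 0.123) were not called, and *Folr1*, with 36 counts over the WT and 56 over the KO libraries, was below the filter.

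For vitamin B12, 14 of 16 other genes were tested, 3 were higher and 2 were lower, 35.7% called against 29.9% of all genes tested. The changes were small: *Mmab*, an enzyme that makes the B12 cofactor of mitochondria, was higher by 0.43 on the log2 scale (adjusted p = 0.0173), the exporter *Abcc1* by 0.42 (adjusted p = 0.021) and *Lrpap1*, a chaperone of the receptors of this family, by 0.40 (adjusted p = 0.0416). *Cd320*, the cell receptor for transcobalamin, had 6.01 ± 0.694 and 7.62 ± 1.64 CPM (log2 fold change 0.34, adjusted p = 0.151). Intrinsic factor (*Gif*, 44 and 13 counts) and megalin (*Lrp2*, 16 and 24 counts over the WT and KO libraries) were below the filter.

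**Figure D5:**
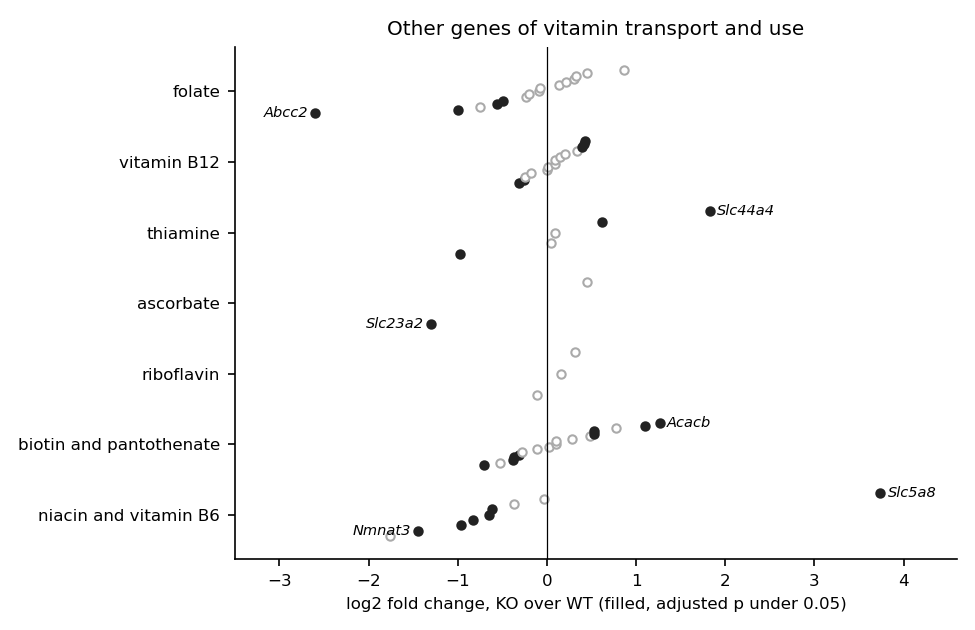
Log2 fold change of KO over WT mice for the 65 other vitamin genes tested, in rows by vitamin, with filled points for genes called by edgeR. *Slc5a8* (3.74) and *Slc44a4* (1.82) are the highest and *Abcc2* (-2.60) is the lowest.

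Of 17 tested genes of biotin and pantothenate use, 4 were higher and 4 were lower, 47.1% called against 29.9% of all genes tested. The biotin-dependent carboxylases *Acacb* (log2 fold change 1.26, adjusted p = 0.00981) and *Acaca* (1.10, adjusted p = 0.0319) were higher, and *Mccc1*, a subunit of another carboxylase, was lower (-0.71, adjusted p = 0.0175). For *Acaca* the groups overlapped, with KO replicate 1 (31.0 CPM) within the WT range of 29.2 to 52.2 CPM (exact permutation test, p = 0.0635). Of 9 tested genes of niacin and vitamin B6, 5 were lower and 1 was higher, which is 66.7% called. The higher one was *Slc5a8*, a sodium-coupled carrier of short-chain fatty acids and nicotinate, with 8.46, 0.510, 0.233, 24.9 and 36.0 CPM in WT and 200.5, 203, 141, 144 and 253 CPM in KO replicates (log2 fold change 3.74 with an SE of 0.94, adjusted p = 0.0136). Like *Slc52a3*, it was highest in replicates 4 and 5 of the WT group. *Nmnat3*, which makes NAD in mitochondria, was lower (-1.44, adjusted p = 0.00325), as was pyridoxal kinase *Pdxk* (-0.96, adjusted p = 0.00282).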

How the data were processed

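Whole-number read counts by Ensembl gene, not normalized, were deposited for 10 libraries, each from 1 mouse. The submitters' processing notes name FastQC 0.11.9, Trimmomatic, HISAT2 2.0.4, SAMtools 1.3.1, DESeq2 1.14.1 and GRCm38 (mm10). The sources used here name no read counter, annotation or strand setting. IDs were matched to GENCODE M21, which named 34490 of 35275. With R 4.3.3, edgeR 4.0.16 kept 15610 genes (filterByExpr, minimum count 10, minimum total 15), and TMM, the quasi-likelihood test and Benjamini-Hochberg adjustment over all of them followed. The exact permutation test used the mean log2 CPM with a prior count of 2. Members, lists and named genes (the members, the 3 called genes with the largest change in each list, fixed partners, the most abundant markers and the nearest profiles) were chosen with earlier results of these data known. *Onecut2*, *Cybrd1*, *Slc40a1*, *Gata4*, *Cdh17*, *Abcc3*, *Col18a1* and *Atraid* were named after their values were seen. Alternatives were RLE, library size or epithelium scaling, DESeq2 1.42.0, other filters, a replicate block, a smooth muscle covariate and leaving out each mouse. The fit was tested on simulated data. A count of 0 allows up to 3 counts. A few genes that this rule names are not reported here.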

Additional observations from a re-analysis of the deposited data

Results flagged for a closer look

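In 2 of 20 groups of 5 libraries checked (the 9 vitamin uptake genes and *Slc39a14* in each genotype), 1 library stood apart from the others by Dixon's ratio. Chance gives that in about 1 of 20 groups of independent, normally distributed values. The groups here share the same libraries, so that rate need not apply to them. Both flagged values came from KO replicate 1. It had 134.4 CPM of *Slc5a6* where the other KO libraries had 47.2 to 59.5 CPM, and 160.1 CPM of *Slc39a14*, the deleted gene, where the others had 78.5 to 93.8 CPM.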

How the results depend on the processing

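*Slc46a1*, *Slc19a3* and *Slc23a1* stayed lower and *Slc52a3* stayed higher past the threshold in every setting run except the smooth muscle covariate. That covariate left 0 vitamin uptake genes called (0 higher and 0 lower), 0 of the other vitamin genes (0 and 0, with 12 at an unadjusted p under 0.05 by edgeR) and 19 of all genes (11 higher and 8 lower). DESeq2, run without the covariate, called 6, 28 and 5679. Scaling to the epithelium markers left 1 vitamin uptake gene higher, 3 other vitamin genes higher and 31 lower, and 822 of all genes higher and 5732 lower. Scaling to library size gave 16 other vitamin genes higher and 11 lower. With the replicate number as a block, 1 vitamin uptake gene was higher, 3 were lower and 3848 of all genes were called, and *Slc19a1* and *Slc5a6* lost the call. The numbers share no stated source, the deviations of same-numbered libraries had correlations from -0.167 to 0.177 across genes, and only number 4 was its own best match. Leaving out each mouse gave 5 to 6 vitamin uptake genes called, 16 to 30 other vitamin genes (5 to 13 higher, 10 to 18 lower) and 1634 to 2944 of all genes higher, with the lowest without WT replicate 2. The direction of *Cubn* turned with library size scaling (0.0318) and ranged from -0.35 to 0.20 over mice left out. That of *Amn* turned with epithelium scaling (-0.18) and the muscle covariate (-0.62) and ranged from -0.13 to 0.30. The causes were not tested. The change of *Slc19a3* rests on 33 counts over the KO libraries.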

Other observations

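The genes whose profile over the 10 libraries was closest to that of *Slc46a1* were *Gstm6*, *Ces2g* and *Ros1*, with root mean square distances of 0.26, 0.408 and 0.408 between mean-centred log2 CPM values, out of 15609 genes compared. *Gstm6*, a glutathione S-transferase, had 73.8 ± 39.5 CPM in WT and 4.16 ± 1.24 CPM in KO mice (SD, n = 5 each). *Ces2g*, a carboxylesterase, had 120 ± 63.2 and 7.37 ± 1.83 CPM. Both belong to families of close relatives that may share reads. *Ros1*, a receptor tyrosine kinase, had 6.15 ± 3.33 and 0.209 ± 0.142 CPM. Closest to *Cubn* was *Bambi*, at a distance of 0.266, which was not called (adjusted p = 0.695).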
